A study of Homo sapiens with 24 samples.

Results

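The transcripts described here encode ligands and receptors of the EGF receptor family in 2 human pancreatic cancer cell lines. The members are the 8 rows of the deposited expression table, of 34595 in all, that carry the symbols of the EGF receptor ligands HBEGF, AREG, EREG, TGFA and BTC and of the receptors EGFR, ERBB2 and ERBB3. The rule goes by name and uses no measured value. Transcript levels came from 24 Illumina bead arrays of 1 colour, 2 for each of 12 groups, in a study of what inhibiting the interleukin-1 receptor-associated kinases IRAK1 and IRAK4 does in pancreatic cancer cells.

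Each line, PANC-1 (Panc1) and Capan-1 (Capan1), was represented by 6 groups grown in medium with 10% serum. The DMSO group received vehicle for 24 h and the inhibitor group received an IRAK1/4 inhibitor at 10 uM for 24 h. The hairpin groups carried short hairpin RNAs delivered by 2 retroviruses in turn, with puromycin selection at 1 ug/mL for 48 h after the first and geneticin selection at 500 ug/mL for 4 days after the second, whose vector also encodes GFP. The scramble group carried a scrambled sequence in both viruses. The shIRAK1 and shIRAK4 groups carried their hairpin in the first virus and the scrambled sequence in the second, and the shIRAK1+4 group carried shIRAK1 in the first and shIRAK4 in the second. All hairpin groups, scramble included, thus went through both infections and both selections, which the DMSO and inhibitor groups did not. The design text assigns the hairpins to PANC-1 alone, yet arrays labelled with hairpins are present for both lines. Nothing in the labels tells whether the 2 replicate arrays stem from different cultures. The p-values therefore reflect the spread between these arrays alone, which may be technical.

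Both lines are established tumour lines, kept without the stroma of the tumours they came from. Of 12 epithelial markers on the array, all were detected on every Capan1 array and 6 on every Panc1 array. Of 9 fibroblast and stellate markers, COL1A2, COL3A1, DCN, LUM, PDGFRB, PDGFRA and FAP were detected on no array of either line, and 1 was detected on every Capan1 array. Of 7 immune markers PTPRC and CD3E were detected on none, and 1 was detected on every array of each line.

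EGF family ligands are made as membrane-anchored precursors and are released by metalloproteases of the ADAM group. The ligands among the members bind EGFR, and some also bind ERBB4. ERBB2 has no known ligand and ERBB3 has a weak kinase and binds neuregulins, so both signal mainly as partners in pairs. The receptors feed the RAS-MAPK and PI3K pathways.

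For orientation, the 250 bases upstream of the annotated start are shown for HBEGF, EGFR and ERBB2, a ligand and 2 receptors among the members that differed between treatments or lines (RefSeq, GRCh38.p14, each in the direction of the gene). RefSeq windows were matched for 7 of the 8 members, each at the outermost annotated start of the gene. Windows at other starts of a member were not examined, so a window shown need not be the promoter used in these cells. Capitals mark matches, on either strand, to motifs searched by their letters, and matches may share bases.
HBEGF, chr5:140346604-140346853, minus strand: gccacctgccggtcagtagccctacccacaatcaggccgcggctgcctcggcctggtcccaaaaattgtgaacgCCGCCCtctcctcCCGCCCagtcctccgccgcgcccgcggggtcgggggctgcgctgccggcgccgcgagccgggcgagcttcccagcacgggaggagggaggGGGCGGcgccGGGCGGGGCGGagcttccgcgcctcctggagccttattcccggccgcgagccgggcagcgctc
EGFR, chr7:55018767-55019016, plus strand: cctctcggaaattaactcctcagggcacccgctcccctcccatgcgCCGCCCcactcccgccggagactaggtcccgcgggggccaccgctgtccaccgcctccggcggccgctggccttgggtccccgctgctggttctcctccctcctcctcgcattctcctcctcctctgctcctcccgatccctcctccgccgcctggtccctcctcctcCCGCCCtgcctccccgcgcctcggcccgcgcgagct
ERBB2, chr17:39687844-39688093, plus strand: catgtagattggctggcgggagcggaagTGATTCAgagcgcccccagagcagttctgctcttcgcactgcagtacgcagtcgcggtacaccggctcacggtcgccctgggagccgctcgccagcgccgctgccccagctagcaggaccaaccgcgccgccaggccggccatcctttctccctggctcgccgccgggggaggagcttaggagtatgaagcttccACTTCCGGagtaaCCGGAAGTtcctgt
The HBEGF window held 5 GC boxes (GGGCGG) and the EGFR window held 2. The ERBB2 window held no GC box but an AP-1 motif (TGANTCA) and 2 ETS motifs (CCGGAAGT). GC boxes were present in 42.6% of the 35116 windows of this length, AP-1 motifs in 6.57% and ETS motifs in 3.42%. None of these 3 windows held the CRE (TGACGTCA, 1.65% of windows), EGR1 (GCGNGGGCG, 8.41%), E-box (CACGTG, 6.34%) or NF-kB motif (1.40%).

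Levels are log2 signals after background correction and quantile normalization, and differences between groups are differences of these levels in 1 limma fit over all arrays, with the standard error (SE) of the fit. An adjusted p is from limma after Benjamini-Hochberg adjustment over all rows tested in that comparison, and a difference was called when it was under 0.05. A row was tested when its detection p, which sets the signal against the negative controls of the array, was under 0.01 on both arrays of 1 or more of the groups compared. Between 10015 and 12090 rows were detected per array, and the level of the dimmest detected row that behaved as 1 probe, the detection limit, lay between 5.02 and 5.45. The spread between 2 arrays of a group was taken as the root mean square of the row SDs, over rows tested in any comparison. It was smallest in Capan1 DMSO (0.155) and largest in Capan1 shIRAK1+4 (0.359). Median scaling in place of quantile normalization moved the median difference of all tested rows by over 0.1 in several comparisons, to 0.23 for shIRAK1 in Panc1 and -0.26 between the lines under scramble. RNA was taken from whole cultures, in which fewer cells of a kind and less RNA per cell cannot be told apart.

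The hairpin target IRAK1 stood at 11.30 and 11.53 in Panc1 scramble, at 8.34 and 9.58 in Panc1 shIRAK1 and at 8.38 and 8.67 in Panc1 shIRAK1+4. It fell with shIRAK1 (log2 difference -2.46 ± 0.30 (SE), limma adjusted p = 9.75e-05) and with shIRAK1+4 (-2.89 ± 0.30, 1.56e-05). In Capan1 it fell by 1.59 ± 0.30 with shIRAK1+4 (limma adjusted p = 0.00549), while the difference with shIRAK1, -1.18 ± 0.30, missed the threshold (0.0543). IRAK4 was not detected on either scramble array of either line, so its knockdown against scramble could not be measured. In Panc1 it had 6.45 and 5.84 under DMSO and was called lower in scramble, at least 1.67-fold (limma adjusted p = 0.000808). IRAK4 was also higher in Panc1 shIRAK1 than in scramble, at least 1.37-fold (limma adjusted p = 0.0094). Against Panc1 shIRAK1 it was lower in shIRAK1+4, at least 1.59-fold (limma adjusted p = 0.00143).

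HBEGF, the heparin-binding ligand of EGFR and ERBB4, was the one member detected on all 24 arrays. It fell with every IRAK hairpin in Panc1 and with the inhibitor in Capan1, and was highest in Panc1 scramble. In Panc1 it stood at 7.44 and 7.56 under DMSO, at 7.93 and 7.84 with the inhibitor, and at 9.19 and 9.28 in scramble. Both scramble arrays were higher than every other array of either line. With the hairpins it stood at 6.51 and 7.37 (shIRAK1), at 6.41 and 7.93 (shIRAK4) and at 6.66 and 6.87 (shIRAK1+4), so no hairpin array reached the scramble arrays, and the shIRAK4 arrays lay far apart.

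Against scramble, HBEGF in Panc1 fell with each hairpin, by log2 differences of -2.29 ± 0.45 with shIRAK1 (4.90-fold, limma adjusted p = 0.00391), -2.06 ± 0.45 with shIRAK4 (4.18-fold, 0.00667) and -2.46 ± 0.45 with shIRAK1+4 (5.51-fold, 0.00183). It was the one member tested in these comparisons, in which 11.7%, 14.5% and 16% of all tested rows were called. The shIRAK4 call was lost without Panc1 shIRAK4 replicate 1 (limma adjusted p = 0.0693). The 3 comparisons share the scramble arrays, and HBEGF in scramble was itself above DMSO by 1.73 ± 0.45 (3.32-fold, limma adjusted p = 0.00992, 27.5% of rows called), a call lost without Panc1 DMSO replicate 1 or Panc1 scramble replicate 2 (highest adjusted p 0.0600). The hairpin levels thus lay near the DMSO level of 7.50, from 6.77 for the shIRAK1+4 mean to 7.17 for the shIRAK4 mean, and were not tested against it. The inhibitor difference in Panc1 was 0.38 ± 0.45, with a 95% interval from -0.57 to 1.33 (limma adjusted p = 0.678), where 7.36% of rows were called and none of the 2 members tested. The summed level of the epithelial list, the log2 of summed unlogged values in which bright markers weigh most, was 12.001 and 12.009 on the scramble arrays of Panc1. It was 12.8 to 13.4 on its DMSO and IRAK hairpin arrays and 12.1 to 12.2 with the inhibitor. The median level of that list was 6.78 in Panc1 scramble, 6.74 under DMSO, 6.59 with the inhibitor and 7.08 to 7.67 with the IRAK hairpins. The summed level of the fibroblast and stellate list was 9.14 to 9.59 on the Panc1 shIRAK4 arrays, against 8.10 to 8.71 on the other Panc1 arrays. Its median level was 4.59 in Panc1 shIRAK4 and 4.52 to 4.62 in the other Panc1 groups. The part of either in the HBEGF differences was not tested.

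In Capan1 the order was another. HBEGF stood at 7.73 and 7.52 under DMSO, at 5.80 and 5.41 with the inhibitor and at 5.84 and 6.21 in scramble. The inhibitor arrays were both lower than either scramble array and far below the DMSO arrays. With hairpins it stood at 7.22 and 6.67 (shIRAK1), at 5.77 and 7.24 (shIRAK4) and at 7.70 and 7.56 (shIRAK1+4), and shIRAK4 overlapped scramble whereas the other hairpin groups lay wholly above it.

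HBEGF fell by 2.01 ± 0.45 with the inhibitor in Capan1 (4.04-fold, limma adjusted p = 0.00292), a comparison in which 34.9% of tested rows were called. It was lower in scramble than under DMSO by a log2 difference of -1.60 ± 0.45 (3.02-fold, limma adjusted p = 0.0229, 17.5% of rows called), and the call did not survive leaving out either Capan1 DMSO or either Capan1 scramble array (highest adjusted p 0.133), nor the background inferred from all rows or the lack of a detection filter (up to 0.0621). The shIRAK1+4 difference from scramble was 1.60 ± 0.45 (3.03-fold, limma adjusted p = 0.0441, 6.59% of rows called), which missed the threshold under 9 of 13 alternative settings (adjusted p up to 0.122) and without any single array of the DMSO, inhibitor, scramble or shIRAK1+4 groups of either line (16 of 24 arrays, up to 0.214). The differences with shIRAK1, 0.92 ± 0.45, and shIRAK4, 0.48 ± 0.45, were not called (limma adjusted p = 0.399 and 0.536, with 1.98% and 9.50% of rows called and no member among them). The sizes depend on the background estimate: with the background inferred from all rows the inhibitor difference in Capan1 was -0.25, still past the threshold.

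**Figure D1:**
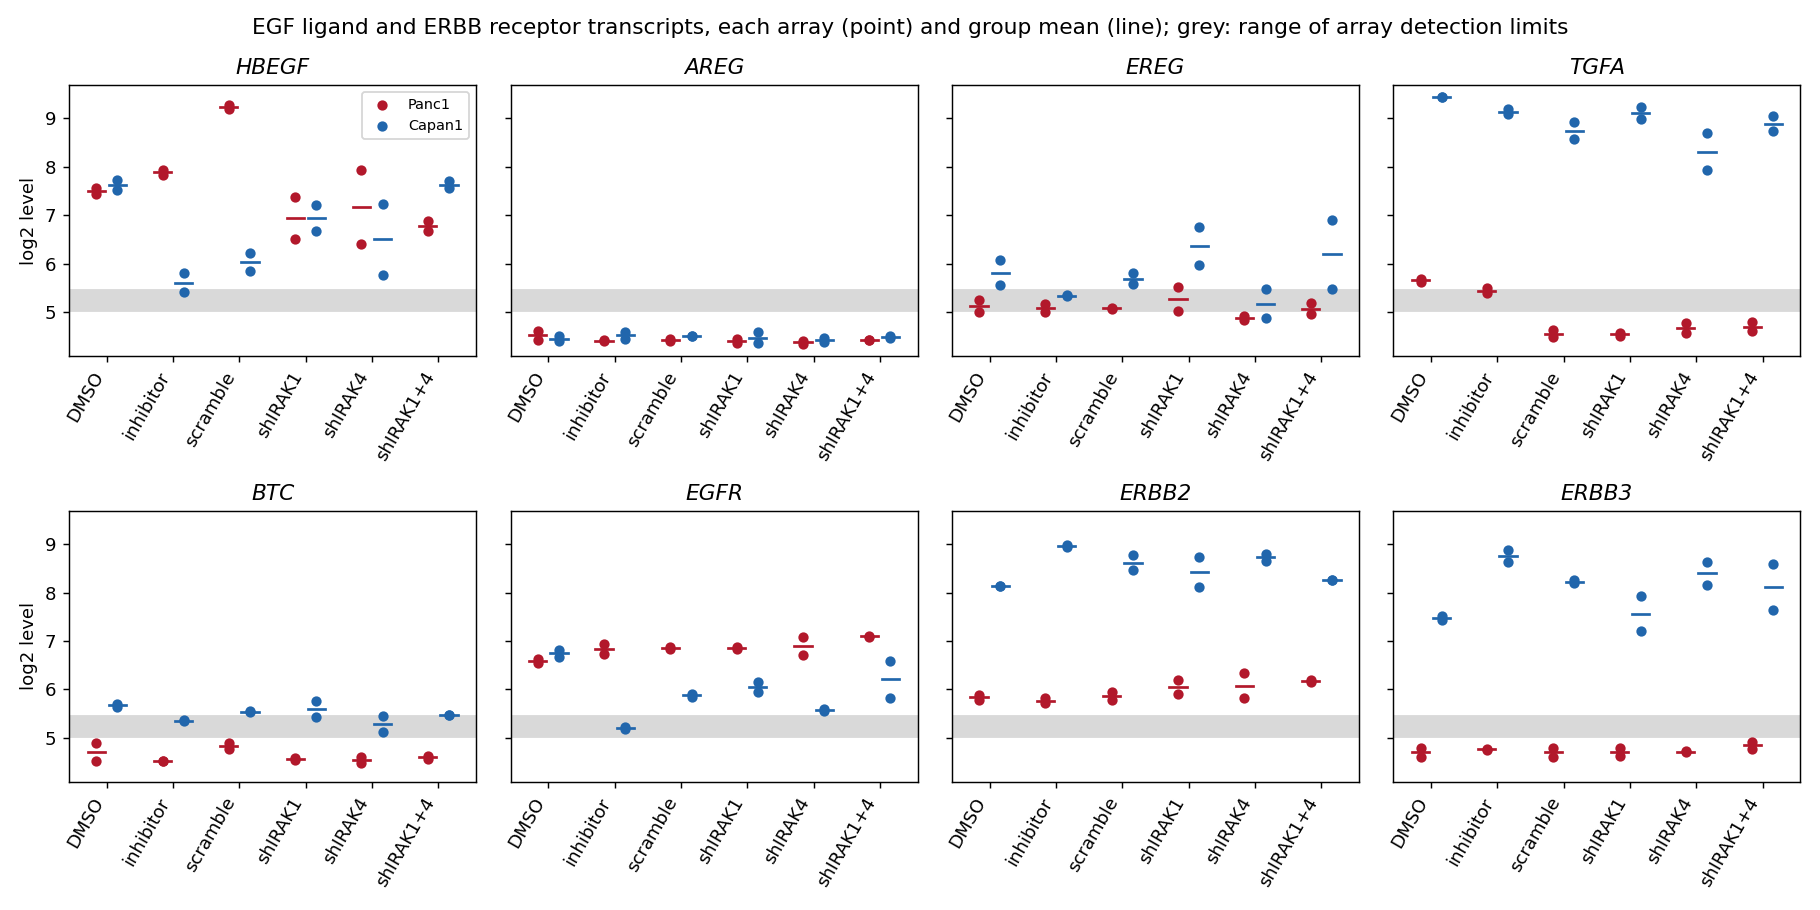
Log2 level of each member on every array (points) with group means (short lines), for Panc1 in red and Capan1 in blue, against the 6 treatments; the grey band is the range of the arrays' detection limits, 5.02 to 5.45. HBEGF peaks on the Panc1 scramble arrays at 9.19 and 9.28, and TGFA, ERBB2 and ERBB3 separate the lines on every array.

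The lines differed in HBEGF by treatment. With the inhibitor HBEGF fell in Capan1 and was not called in Panc1, and the Panc1 difference minus the Capan1 difference was 2.40 ± 0.63 (limma adjusted p of the interaction 0.0174, 17.3% of rows called). The hairpin differences were lower in Panc1 than in Capan1 by a log2 difference of -3.21 ± 0.63 for shIRAK1 (0.00735, 5.75% of rows called), -2.54 ± 0.63 for shIRAK4 (0.0198, 10.3%) and -4.06 ± 0.63 for shIRAK1+4 (0.00101, 11.9%), the last equal to 16.7-fold. The inhibitor interaction lost its call without Capan1 DMSO replicate 1, Capan1 inhibitor replicate 2, Panc1 DMSO replicate 1 or Panc1 inhibitor replicate 1 (adjusted p up to 0.0632). The shIRAK4 interaction lost it without either Panc1 scramble array, Capan1 scramble replicate 1, Capan1 shIRAK4 replicate 2 or Panc1 shIRAK4 replicate 1 (up to 0.0741). Those of shIRAK1 and shIRAK1+4 kept it with each of 24 arrays left out. The hairpin interactions rest on scramble arrays that themselves stood 3.20 ± 0.45 apart between the lines (limma adjusted p = 1.5e-05), whereas the DMSO arrays differed by -0.12 ± 0.45 (0.831). Over the 12 groups the mean level ran from 9.23 in Panc1 scramble through 7.88 (Panc1 inhibitor), 7.63 (Capan1 shIRAK1+4), 7.62 (Capan1 DMSO) and 7.50 (Panc1 DMSO) to 6.03 in Capan1 scramble and 5.61 in Capan1 inhibitor. The arrays of neighbouring groups in this order overlapped except at the steps below Panc1 scramble, Panc1 inhibitor and Capan1 scramble.

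**Figure D2:**
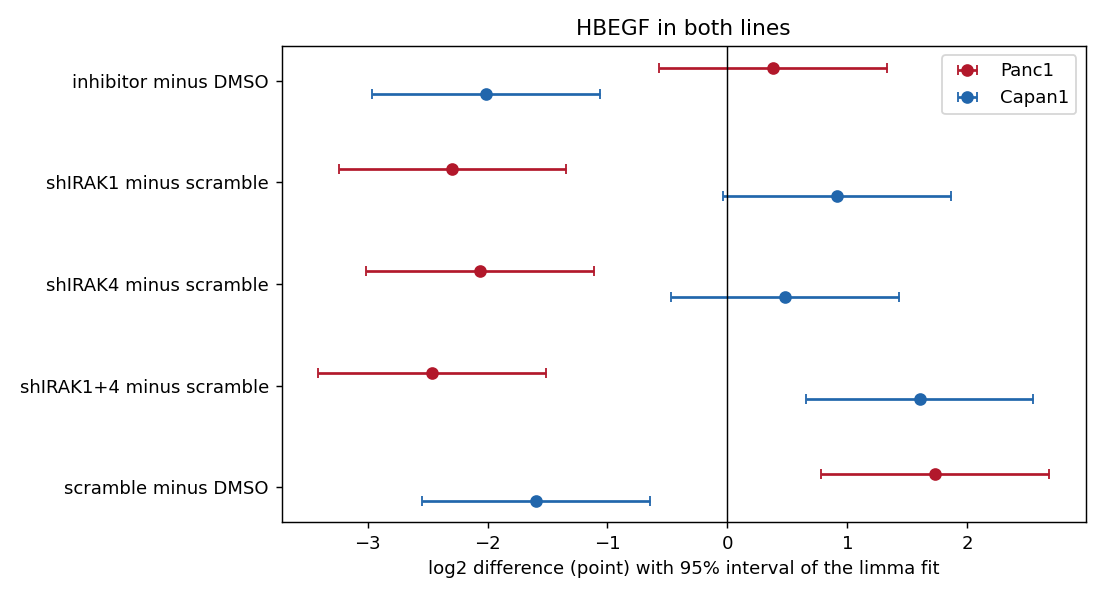
Log2 difference of HBEGF (points) with the 95% interval of the limma fit (bars) for the 5 within-line comparisons in Panc1 (red) and Capan1 (blue). All 3 hairpin differences lie below 0 in Panc1, from -2.46 to -2.06, and above 0 in Capan1, from 0.48 to 1.60, where 2 of the intervals include 0.

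TGFA, a ligand of EGFR, was higher in Capan1 than in Panc1. It ranged from 7.94 to 9.43 on the 12 Capan1 arrays and from 4.48 to 5.68 on the 12 Panc1 arrays, without overlap. In Panc1 it was above the detection limit only under DMSO (5.63 and 5.68) and with the inhibitor (5.50 and 5.39), and on none of the 8 hairpin arrays. It fell in Panc1 scramble against DMSO, at least 1.19-fold (log2 difference -1.10 ± 0.19, limma adjusted p = 0.000744), a call lost with the background inferred from all rows (0.742). In Capan1 it stood at 9.43 on both DMSO arrays and at 8.58 and 8.92 in scramble. This was a difference of -0.69 ± 0.19 (1.61-fold, limma adjusted p = 0.0198), lost under 5 of 13 alternatives (up to 0.0935) and without either Capan1 DMSO array or Capan1 scramble replicate 1 (up to 0.168). The inhibitor difference was -0.29 ± 0.19 in Capan1 (limma adjusted p = 0.237) and -0.21 ± 0.19 in Panc1 (0.570). No hairpin moved TGFA past the threshold in Capan1, where the differences from scramble were 0.37 (shIRAK1), -0.43 (shIRAK4) and 0.15 (shIRAK1+4), each ± 0.19.

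Betacellulin (BTC), a ligand of EGFR and ERBB4, was detected on 11 Capan1 arrays and no Panc1 array. Its levels were 5.13 to 5.76 in Capan1, just above the detection limit, and 4.48 to 4.90 in Panc1. None of its differences between treatments was called. The closest was the Capan1 inhibitor, with 5.34 and 5.37 against 5.65 and 5.71 under DMSO, a difference of -0.32 ± 0.13 (limma adjusted p = 0.0606).

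Epiregulin (EREG), a ligand of EGFR and ERBB4, was detected on 10 Capan1 arrays and 1 Panc1 array. In Capan1 it stood at 5.96 and 6.76 in shIRAK1, at 5.47 and 6.91 in shIRAK1+4, at 5.55 and 6.08 under DMSO, at 5.58 and 5.81 in scramble, at 5.32 and 5.35 with the inhibitor and at 4.88 and 5.47 in shIRAK4. The arrays lay furthest apart in shIRAK1+4 and closest with the inhibitor, and no difference between treatments or lines was called, the smallest limma adjusted p between treatments of EREG against scramble or DMSO being 0.311. Amphiregulin (AREG), an EGFR ligand, was detected on none of the 24 arrays. Its levels were 4.35 to 4.62 and its lowest detection p was 0.349, so nothing is said here about its direction.

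The receptor rows and, among the ligands, the TGFA row combine several probes. The detection p of such rows behaved differently from that of single probes. Of deposited log2 signals over 8, before correction and normalization, 7593 of 21325 (35.6%) were not detected in rows of several probes, against 0 of 95385 in 1-probe rows. EGFR and ERBB2 never passed the detection filter, although their levels exceeded the detection limit on all 12 Panc1 arrays and on 10 (EGFR) and 12 (ERBB2) Capan1 arrays. Their results therefore come from the same limma fit with no detection filter, adjusted over all 34595 rows.

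EGFR, the receptor of the ligands above, lay in Panc1 between 6.54 and 7.11 on all arrays. Of its 5 Panc1 differences from DMSO or scramble the largest was scramble against DMSO (0.27 ± 0.18, limma adjusted p without the filter 0.512). In Capan1 it stood at 6.67 and 6.82 under DMSO, at 5.18 and 5.23 with the inhibitor and at 5.84 and 5.91 in scramble. The inhibitor arrays were the lowest of the 24, both under their arrays' detection limits. EGFR fell at least 2.76-fold with the inhibitor in Capan1 (log2 difference -1.54 ± 0.18, limma adjusted p = 4.31e-05, 9.35% of rows called without the filter). The call held under all 12 alternatives. The difference ran from -1.63 to -0.11 among them, so the fold holds for the main setting only. EGFR was also lower in scramble than under DMSO by a log2 difference of -0.87 ± 0.18 (1.83-fold, 0.00991, 3.95% of rows called), a call lost without Capan1 DMSO replicate 1 or either Capan1 scramble array, and with each line fitted alone (up to 0.105).

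With the inhibitor EGFR stood at 6.74 and 6.94 in Panc1, against 6.54 and 6.62 under DMSO (0.26 ± 0.18, limma adjusted p without the filter 0.760). The Panc1 difference minus the Capan1 difference was 1.80 ± 0.25 (limma adjusted p of the interaction without the filter 0.000711, 4.36% of rows called). This held in 11 of 11 alternatives and with each of 24 arrays left out. With the background inferred from all rows, however, the interaction was 0.14 in size. In Capan1 the hairpin differences from scramble were 0.17 (shIRAK1), -0.30 (shIRAK4) and 0.33 (shIRAK1+4), each ± 0.18, and none was called (limma adjusted p without the filter 0.592 or higher). In the order of the 12 groups, the Panc1 groups and Capan1 DMSO lay at the top, with means from 6.58 to 7.09. The other Capan1 groups followed from 6.21 down to 5.20.

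ERBB2, the receptor without a known ligand, separated the lines on every array. It lay between 8.11 and 8.99 in Capan1 and between 5.72 and 6.34 in Panc1. In Capan1 it stood at 8.14 on both DMSO arrays, at 8.93 and 8.99 with the inhibitor and at 8.46 and 8.77 in scramble, so the DMSO arrays were below both other groups. ERBB2 rose with the inhibitor by 0.82 ± 0.18 (1.76-fold, limma adjusted p without the filter 0.00814), a call lost under median scaling (0.0843) and without either Capan1 DMSO array or Capan1 inhibitor replicate 1 (up to 0.0653). The scramble difference from DMSO, 0.47 ± 0.18, was not called (0.218). Nor was the interaction of the inhibitor with the line, -0.89 ± 0.26 (0.0673).

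ERBB3, which binds neuregulins and recruits PI3K, was above the detection limit on all 12 Capan1 arrays and on no Panc1 array. In Capan1 it stood at 7.44 and 7.51 under DMSO, at 8.64 and 8.88 with the inhibitor and at 8.19 and 8.25 in scramble. ERBB3 rose by 1.28 ± 0.25 with the inhibitor (2.44-fold, limma adjusted p = 0.00125), under all 13 alternatives and with each of 24 arrays left out. With HBEGF it made up the 2 of 5 tested members called in that comparison, a share near the 34.9% over all tested rows. The scramble difference, 0.74 ± 0.25, missed the threshold (0.0534) but passed it with array weights, the replicate block or a trend of the spread on level, and without any single Capan1 array of the 3 IRAK hairpin groups (lowest adjusted p 0.00159). The interaction with the line was -1.22 ± 0.36 (limma adjusted p = 0.0289), where all Panc1 arrays lay under the detection limit. That call was lost under 4 of 12 alternatives, median scaling and the authors' deposited table among them (adjusted p up to 0.140), and without either Capan1 DMSO array, Capan1 inhibitor replicate 1 or any Panc1 DMSO or inhibitor array (up to 0.101). With shIRAK1 in Capan1 it stood at 7.20 and 7.93, -0.66 ± 0.25 against scramble, which was not called (0.250).

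The inhibitor and scramble arrays of Capan1 thus stood on the same side of DMSO for HBEGF, EGFR, ERBB2 and ERBB3. The group means of TGFA, EREG and BTC did so too, so this was not particular to those members. Their differences were -0.29, -0.48 and -0.32 with the inhibitor and -0.69, -0.12 and -0.13 in scramble, of which only TGFA in scramble was called. Both contrasts use the same 2 DMSO arrays, and the values are given side by side with no test of their likeness. Among the other EGF family ligands and ERBB receptors (EGF, EPGN, NRG1, NRG2, NRG3, NRG4 and ERBB4), neuregulin 4 (NRG4), a ligand of ERBB4, was the one transcript called in either. NRG4 rose by 1.83 ± 0.30 with the inhibitor (limma adjusted p = 0.000285), as the 1 list member tested, and by 1.30 ± 0.30 in scramble (0.007), as 1 of 2 tested. Of all tested rows 34.9% and 17.5% were called in these comparisons. NRG4 was not tested within Panc1, where none of the 7 passed the detection filter in any comparison with DMSO or scramble.

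**Figure D3:**
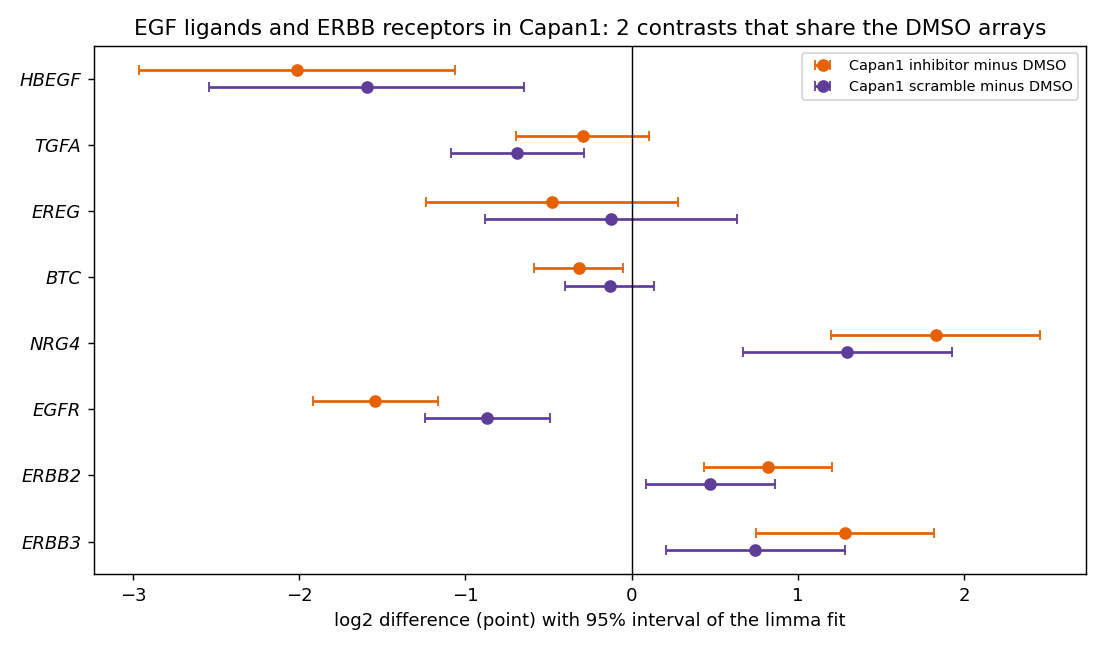
Log2 differences (points) with 95% intervals of the limma fit (bars) in Capan1 for inhibitor minus DMSO (orange) and scramble minus DMSO (purple), which share the DMSO arrays. HBEGF and EGFR lie below 0 and NRG4, ERBB2 and ERBB3 above 0 in both, with inhibitor values of -2.01, -1.54, 1.83, 0.82 and 1.28. The points of TGFA, EREG and BTC also lie below 0 in both.

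Between the lines, 3 of 5 tested members were called under DMSO, where 59.1% of tested rows were, and 4 of 5 under scramble, where 64.0% were, so these shares are near the background. TGFA was lower in Panc1 by a log2 difference of -3.78 ± 0.19 under DMSO (13.7-fold, limma adjusted p = 1.45e-10) and at least 10.1-fold under scramble (3.78e-11). ERBB3 was at least 4.63-fold lower in Panc1 under DMSO (limma adjusted p = 1.69e-07) and at least 7.02-fold under scramble (1.01e-08). BTC was lower in Panc1 at least 1.33-fold (limma adjusted p = 7.61e-06) and 1.10-fold (0.000155). Without the filter, where 20.5% and 22.7% of rows were called, ERBB2 was lower in Panc1 by log2 differences of -2.30 ± 0.18 under DMSO (4.93-fold, limma adjusted p = 9.66e-08) and -2.75 ± 0.18 under scramble (6.73-fold, 1.07e-08). With the background inferred from all rows these differences kept their calls and shrank, under DMSO to -1.29 for TGFA, -0.26 for ERBB3, -0.05 for BTC and -0.39 for ERBB2, so the folds hold for the 1-probe background. EGFR differed by -0.16 ± 0.18 under DMSO (0.694) and was higher in Panc1 by 0.98 ± 0.18 under scramble (limma adjusted p = 0.000519).

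The double hairpin was also set against each single one. No member was called in Panc1 against shIRAK1 (7.67% of rows called) or shIRAK4 (1.93%), nor in Capan1 against shIRAK1 (4.02%) or shIRAK4 (5.32%). The differences of HBEGF were -0.17 and -0.40 in Panc1 and 0.69 and 1.12 in Capan1, each ± 0.45 (limma adjusted p = 0.872, 0.776, 0.410 and 0.158). The largest of the other members was EREG in Capan1 against shIRAK4, 1.02 ± 0.36 (0.112).

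The shedding machinery of the ligands was followed in a list of 9 transcripts. RHBDF1, which encodes iRhom1, a partner that guides ADAM17 to the cell surface, fell in Panc1 with each hairpin. Its differences from scramble were -0.85 ± 0.10 (shIRAK1, limma adjusted p = 9.87e-05), -0.52 ± 0.10 (shIRAK4, 0.00389) and -0.41 ± 0.10 (shIRAK1+4, 0.0147). This was 1 of 5, 1 of 4 and 1 of 5 tested, against 11.7%, 14.5% and 16% of all tested rows called. RHBDF1 rose in Panc1 scramble against DMSO by 1.02 ± 0.10 (limma adjusted p = 9.36e-06), together with the rhomboid protease RHBDL2 (0.65 ± 0.17, 0.0113). These were 2 of 4 tested, against 27.5% of all tested rows. In Capan1 RHBDF1 fell with the inhibitor by 0.32 ± 0.10 (0.0245) and in scramble by 0.45 ± 0.10 (0.00687). ADAM17, the main sheddase of HBEGF, AREG, EREG and TGFA, rose with the inhibitor in Capan1 by 0.81 ± 0.20 (limma adjusted p = 0.00581), as did RHBDL2 by 0.77 ± 0.17 (0.00327). Of 5 tested, 2 were thus higher and 1 lower with the inhibitor in Capan1, against 34.9% of all tested rows called. In Capan1 scramble 1 of 5 was lower, against 17.5%.

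Transcripts known to rise after ERBB and MAPK signalling were counted in a list of 22. In Panc1 against scramble, 4 of 20 tested were lower with shIRAK1, 6 of 20 with shIRAK4 and 8 of 20 with shIRAK1+4, and none was higher. Over all tested rows 11.7%, 14.5% and 16% were called in either direction. The median difference of the tested list was -0.37, -0.34 and -0.59, against 0.01, 0.01 and 0.03 over all tested rows. The immediate early factor EGR1 was the largest, with differences of -3.47 ± 0.38, -3.01 ± 0.38 and -3.31 ± 0.38 (limma adjusted p = 4.7e-05, 0.000103 and 4.56e-05). DUSP6, a phosphatase of ERK, differed by -1.27, -1.02 and -1.41, each ± 0.29 (0.0101, 0.0286 and 0.00399). The ERK feedback phosphatase DUSP5 differed by -1.08, -1.05 and -0.72, each ± 0.23. These comparisons share the scramble arrays, in which 8 of 20 were higher than under DMSO, EGR1 by 4.18 ± 0.38 (3.91e-06) and DUSP6 by 1.65 ± 0.29 (0.000861), and 1, IER3, was lower by a log2 difference of -1.13 ± 0.12 (1.61e-05). Between Panc1 scramble and DMSO 27.5% of all tested rows were called.

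With the inhibitor, 2 of 18 tested transcripts of this list were higher in Panc1 and none lower, where 7.36% of all tested rows were called. They were EGR1, by 1.63 ± 0.38 (limma adjusted p = 0.0174), and DUSP5, by 1.29 ± 0.23 (0.00405). In Capan1, 7 of 19 were lower and none higher, where 34.9% of all tested rows were called in either direction, so the count is near the background. The largest were JUN (-2.99 ± 0.27, 1.26e-06), FOSL1 (-2.62 ± 0.49, 0.00093), IER3 (-1.83 ± 0.12, 8.86e-08) and PHLDA1 (-1.29 ± 0.29, 0.00295). JUN and FOSL1 are subunits of AP-1. The interaction of inhibitor and line was called for 10 of 20, 9 of them higher in Panc1, JUN by 3.55 ± 0.38 (3.57e-05) and FOSL1 by 3.17 ± 0.70 (0.0065). That interaction was called for 17.3% of all tested rows. In Capan1 scramble 4 of 21 were lower than under DMSO, near the 17.5% of all tested rows called there. Among the Capan1 hairpins, 1 of 21 was higher with shIRAK1, 2 of 21 were higher and 1 lower with shIRAK4, and 3 of 22 were higher with shIRAK1+4. Of all tested rows 1.98%, 9.50% and 6.59% were called in either direction. IER3 was higher in all 3 hairpin groups, by 1.00 ± 0.12, 1.16 ± 0.12 and 1.24 ± 0.12.

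**Figure D4:**
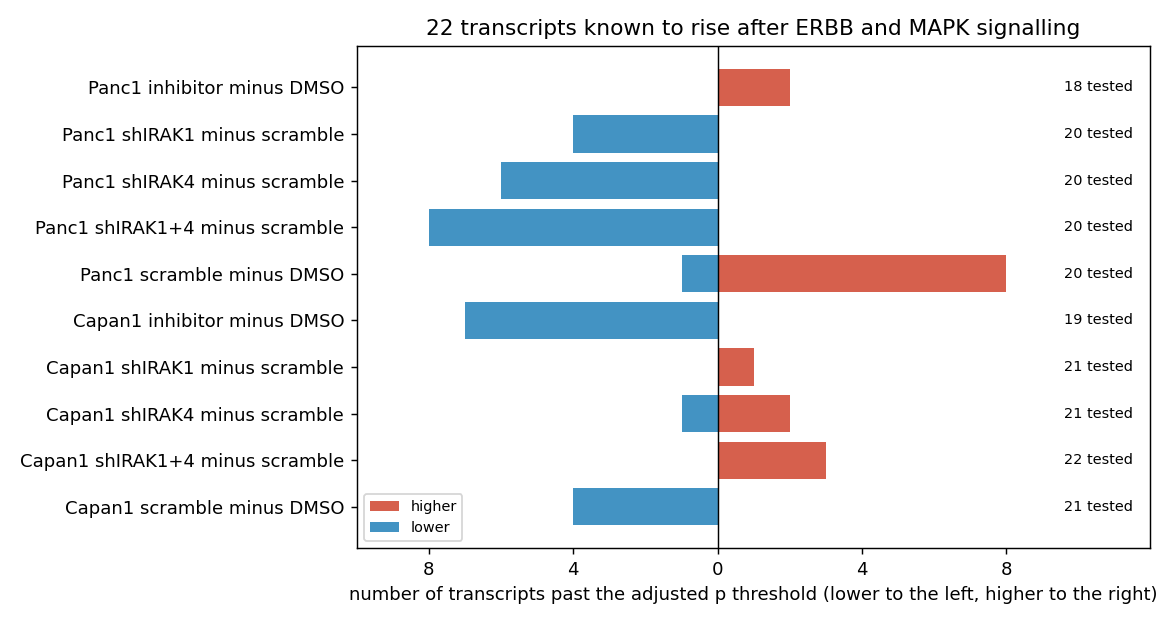
Number of transcripts of the 22-member list called higher (red, to the right) or lower (blue, to the left) in each within-line comparison, with the number tested at the right edge. The Panc1 hairpins show 4, 6 and 8 lower, Panc1 scramble against DMSO 8 higher and 1 lower, and the Capan1 inhibitor 7 lower.

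Of 25 transcripts of adaptors and proximal kinases, none of those tested was called with the inhibitor in Panc1 (0 of 18, where 7.36% of all tested rows were). At most 1 of 16 was called with any Panc1 hairpin, against 11.7% to 16% of all tested rows. In Panc1 scramble against DMSO 7 of 17 were called, HRAS higher and GRB2, SHC1, SOS1, MAP2K1, AKT2 and STAT3 lower, where 27.5% of all tested rows were called. In Capan1 with the inhibitor 2 of 13 were higher (PIK3R2 and MAP2K2) and 4 lower (PIK3CB, NRAS, MAP2K1 and STAT3), against 34.9% of all tested rows called. In Capan1 shIRAK4 3 of 14 were called, PIK3R2 higher and HRAS and BRAF lower, against 9.50% of all tested rows. Among transcripts for receptor trafficking, degradation and inhibition, 2 of 15 were called with the inhibitor in Capan1, against 34.9% of all tested rows. They were the ubiquitin ligase CBLB, which was higher, and the sorting component HGS, which was lower. With shIRAK4 in Capan1, 3 of 16 were called, against 9.50% of all tested rows. ERRFI1, a feedback inhibitor of EGFR, was lower by a log2 difference of -1.31 ± 0.29 (limma adjusted p = 0.01), and LRIG1, which promotes the degradation of ERBB receptors, and the tetraspanin CD82 were higher by 1.07 ± 0.28 and 0.86 ± 0.23 (0.0278 each). ERRFI1 was called in no other comparison of treatments within a line.

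After the mean of each line was taken off, the rows whose 12 group means followed each member most closely were listed as a description, over 7145 candidate rows of 1 current symbol. The groups share control arrays and array normalization, and no p is given. HBEGF was closest to ZNF215, ZSWIM4 and GSK3B (Pearson r = 0.92, 0.90 and 0.90), TGFA to ROCK1, GMIP and MMGT1 (0.95, 0.94 and 0.94), EREG to AATF, CALB2 and KISS1 (0.92, 0.91 and 0.89), BTC to SURF2, SEH1L and TTC27 (0.90, 0.89 and 0.87) and ERBB3 to CYP4F12, NRG4 and TJP3 (0.96, 0.95 and 0.94). With Spearman's rho, 2 of the 3 rows were again among the closest for HBEGF and EREG, 1 for BTC and 0 for TGFA and ERBB3. ERBB3 and BTC lay under the detection limit on all 12 Panc1 arrays, and EREG was above it on 1. The Panc1 part of their likenesses thus comes from values near the floor. Among the members themselves, EGFR and ERBB2 ran in opposite directions over the 6 Capan1 groups (r = -0.98) and HBEGF against ERBB2 likewise (-0.94), whereas in Panc1 the same pairs had r = 0.71 and -0.68.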

How the data were processed

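Per the file headers, the authors deposited a non-normalized table of log2 signal by gene. The submitters' processing notes name GenomeStudio 2011. How probes were combined and background was treated is not given in the sources used here. The deposited table pairs every signal with a detection p-value. A second deposited table holds log2 values that are quantile normalized, judged from the values (34588 rows), and served as an alternative.

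Signals were unlogged. With limma 3.58.1 (R 4.3.3) they underwent normexp background correction, offset 16, quantile normalization over 24 arrays and log2. The background was inferred from the detection p of the 26904 rows that behaved as 1 probe, those whose detection p times 770 inferred controls was whole within 0.001 on all arrays (background mean 25.1 to 25.9 on the linear scale). One model with a mean per group gave all 20 comparisons with 12 residual degrees of freedom. Precision is limited by 2 arrays per group. The fit was tested on simulated data. "At least" folds set the brighter group against the dimmer group's detection limit in the main setting, and other settings can give smaller folds.

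Replicate numbers were checked as a pairing: deviations of same-numbered arrays correlated at -0.12 to 0.43 over 14 pairs of groups, 7 of them over 0.1. This check did not settle whether same-numbered arrays belong together. They were not used as pairs in the main fit, and a replicate block was run as an alternative. Replicate arrays correlated at 0.982 to 0.995, and the arrays of a group shared at most 3 equal values. The members and gene lists were chosen with earlier results of these data known, and the signal filter and both changes to the spread were added after seeing the data. The text names the members, IRAK1, IRAK4 and, of each pathway list, up to 4 called transcripts of largest size per comparison. Beyond this rule, DUSP5 with shIRAK1+4, IER3 in Panc1 scramble and list members named without values were chosen after their values were seen.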

Additional observations from a re-analysis of the deposited data

Results flagged for a closer look

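Results are listed here because the same treatment gave different effects in the lines by the interaction term of the limma fit. HBEGF differed for the inhibitor by 2.40 (Panc1 minus Capan1), for shIRAK1 by -3.21, for shIRAK4 by -2.54 and for shIRAK1+4 by -4.06. EGFR differed for the inhibitor by 1.80, without the detection filter. ERBB3 differed for the inhibitor by -1.22, with Panc1 below the detection limit throughout, so that the Capan1 response sets this value.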

How the results depend on the processing

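Of 29 called differences of members, 18 stayed past the threshold under every alternative and with every single array left out, and 0 changed sign. Of 85 uncalled differences, 17 were called under some setting. The count of called members was unchanged within 1.5 times in 14 of 20 comparisons over the 13 alternatives. Called members for shIRAK1+4 in Capan1 went from 1 to 0 under median scaling, the authors' deposited table, background from all rows, no background correction, offset 50, no detection filter, detection p under 0.05, each line alone and array weights. For Capan1 scramble against DMSO the count went from 2 to 1 under median scaling, the authors' table, background from all rows, no background correction, no filter and each line alone. For the inhibitor interaction it went from 2 to 1 under median scaling, the authors' table and no background correction, and to 4 with detection p under 0.05 and with the added signal filter. For the Capan1 inhibitor it went from 2 to 4 with no filter, detection p under 0.05 and the signal filter, through EGFR and ERBB2. For Panc1 scramble against DMSO it went from 2 to 1 with background from all rows, and for Capan1 shIRAK1+4 against shIRAK4 from 0 to 1 with the signal filter. Apart from the filters, the causes were not tested. With single arrays left out, counts ran from 0 to 1 (Panc1 shIRAK4; Capan1 shIRAK4, shIRAK1+4 and shIRAK1+4 against shIRAK1), 1 to 2 (Panc1 scramble), 0 to 3 (Capan1 scramble; shIRAK1+4 against shIRAK4), and 0 to 2 (inhibitor and shIRAK4 interactions). With the replicate block (consensus correlation 0.0671 between arms) the counts were within 1.5 times in all 20 comparisons. For Capan1 scramble against DMSO the block gave 3, adding ERBB3, and over all rows it moved 1907 calls to 1918.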
